A study of Rattus norvegicus with 6 samples.

Results

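Chromatin remodelling and histone modifier genes were examined in rat neural progenitors as a group of 72 gene names out of 17337 in the RNA-seq tables. The members were all names that begin with Smarc, Chd, Arid, Hdac, Kdm, Kmt, Setd, Ezh, Cbx or Brd or that are Suz12 or Eed. A following digit was required where the family name needs it. The members were thus chosen by name and not by level, but with earlier results of these data known. They fell into 10 classes, namely SWI/SNF subunits (11 genes), ISWI and other SNF2-type remodellers (4), CHD remodellers (5), histone deacetylases (10), KMT and SETD methyltransferases (8), Polycomb repressive complex 2 (3), chromobox proteins (6), KDM demethylases (13), other bromodomain proteins (5) and other ARID proteins (7). *Suz12* and several relatives, among them *Chd4*, *Smarcc2*, *Arid1b*, *Kmt2a* and *Kdm6a*, were not analysed here.

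The study profiled untreated cortical neural progenitors, taken from Sprague Dawley rat embryos at embryonic day 14 and grown with 20 ng/ml bFGF and 20 ng/ml EGF until after passage 2. Polyadenylated RNA was sequenced from 2 independent biological replicates, named cultures A and B here, each as 2 technical libraries (A1, A2, B1 and B2). The 2 Start-seq samples of the same series, which capture short capped nuclear RNA, were not analysed here. All cells were of the same strain and condition, with no genetic change and no drug, and cells kept in growth factor medium model the proliferating cortical progenitor outside its tissue. With 1 condition and 2 cultures no test between groups could be made, so values are given per library and as the mean ± SD over the 2 cultures (n = 2) after averaging the technical libraries.

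The level of an mRNA is given as FPKM, fragments scaled to transcript length and library size, a scale per length on which genes can be compared within a library. Sequencing depth, taken as the read depth per base that corresponds to 1 FPKM, was 24.3 and 22.7 for the libraries of culture A, 24.4 for B1 and 6.83 for B2, so B2 was the shallowest library and results that rest on it are given also without it. Of the progenitor markers in the tables (such as *Sox2*, *Fabp7* and *Lhx2*) 11 of 11 were at 1 FPKM or more. Markers of microglia and endothelium summed to at most 1.34 and 2.37 FPKM in any library. The 1 FPKM line did not single out progenitors. It was also reached by 12 of 12 mesenchymal and meningeal, 4 of 4 astrocyte and 6 of 6 cycling cell markers. Of the neuron and oligodendrocyte lineage markers 4 of 8 and 4 of 6 reached it. Cultures A and B differed in the progenitor markers. The progenitor markers summed to 22345 FPKM in culture A and 10550 in culture B. *Fabp7* made up most of this gap, since the other 10 summed to 4667 and 4548, with 7 of the 10 lower in both libraries of B and 2 with higher means in B. Of these 10, *Vim* had 3026 FPKM in A and 3555 in B, and the 9 besides *Fabp7* and *Vim* summed to 1640.3 and 993. In addition 12 of 12 mesenchymal and meningeal markers (such as *Col1a1*, *Dcn* and *Foxc1*) were higher in both libraries of B, with sums of 686 and 666 FPKM in A1 and A2 against 2538 and 3398 in B1 and B2. Astrocyte markers, which include *Gfap* (mean 571 FPKM), summed to 991, 988, 779 and 1177 FPKM in A1, A2, B1 and B2. Neuron markers summed to between 137 and 174 FPKM per library, and those of the oligodendrocyte lineage to 253, 278, 694 and 352 in A1, A2, B1 and B2. No marker was at 0 in every library. In bulk RNA, fewer cells of a type and less RNA per cell cannot be told apart.

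DNA in the nucleus is wrapped around histones, and the genes described here encode the enzymes that move nucleosomes or add, remove and read chemical marks on histone tails. SWI/SNF, ISWI and CHD remodellers use ATP to slide or evict nucleosomes. Enzymes of the KMT and SETD families methylate histone lysines, an activity that was not tested here for each member. KDM enzymes take the methyl groups off, and deacetylases remove acetyl groups that keep chromatin open. Bromodomain and chromobox proteins bind acetylated or methylated histones. In the developing cortex SWI/SNF complexes are known to exchange subunits when progenitors become neurons, and Polycomb complexes keep neuronal and glial genes silent until they are needed.

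Nearly the whole group was expressed. Of the 72 members, 69 (95.8%) had a mean of at least 1 FPKM, compared with 60.5% of all 17337 names, and 52 (72.2%) had at least 10 FPKM, compared with 38.3%. The median member stood at 23.7 FPKM (24.8 in culture A and 20.7 in culture B, SD 2.91), against 3.83 over all names and 16.6 over the names at 1 FPKM or more. By mean level 37 members lay in the top 25% of all names and 12 in the top 10%, but only 4 passed 100 FPKM. These were *Hdac2*, *Smarce1*, *Cbx3* and *Smarcb1*. Together the 72 genes held 0.412% ± 0.0207 of all transcripts by TPM, with 0.446%, 0.407%, 0.410% and 0.385% in A1, A2, B1 and B2. SWI/SNF was the class with the highest median (54.5 FPKM) and the other ARID proteins the class with the lowest (4.11 FPKM).

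**Figure D1:**
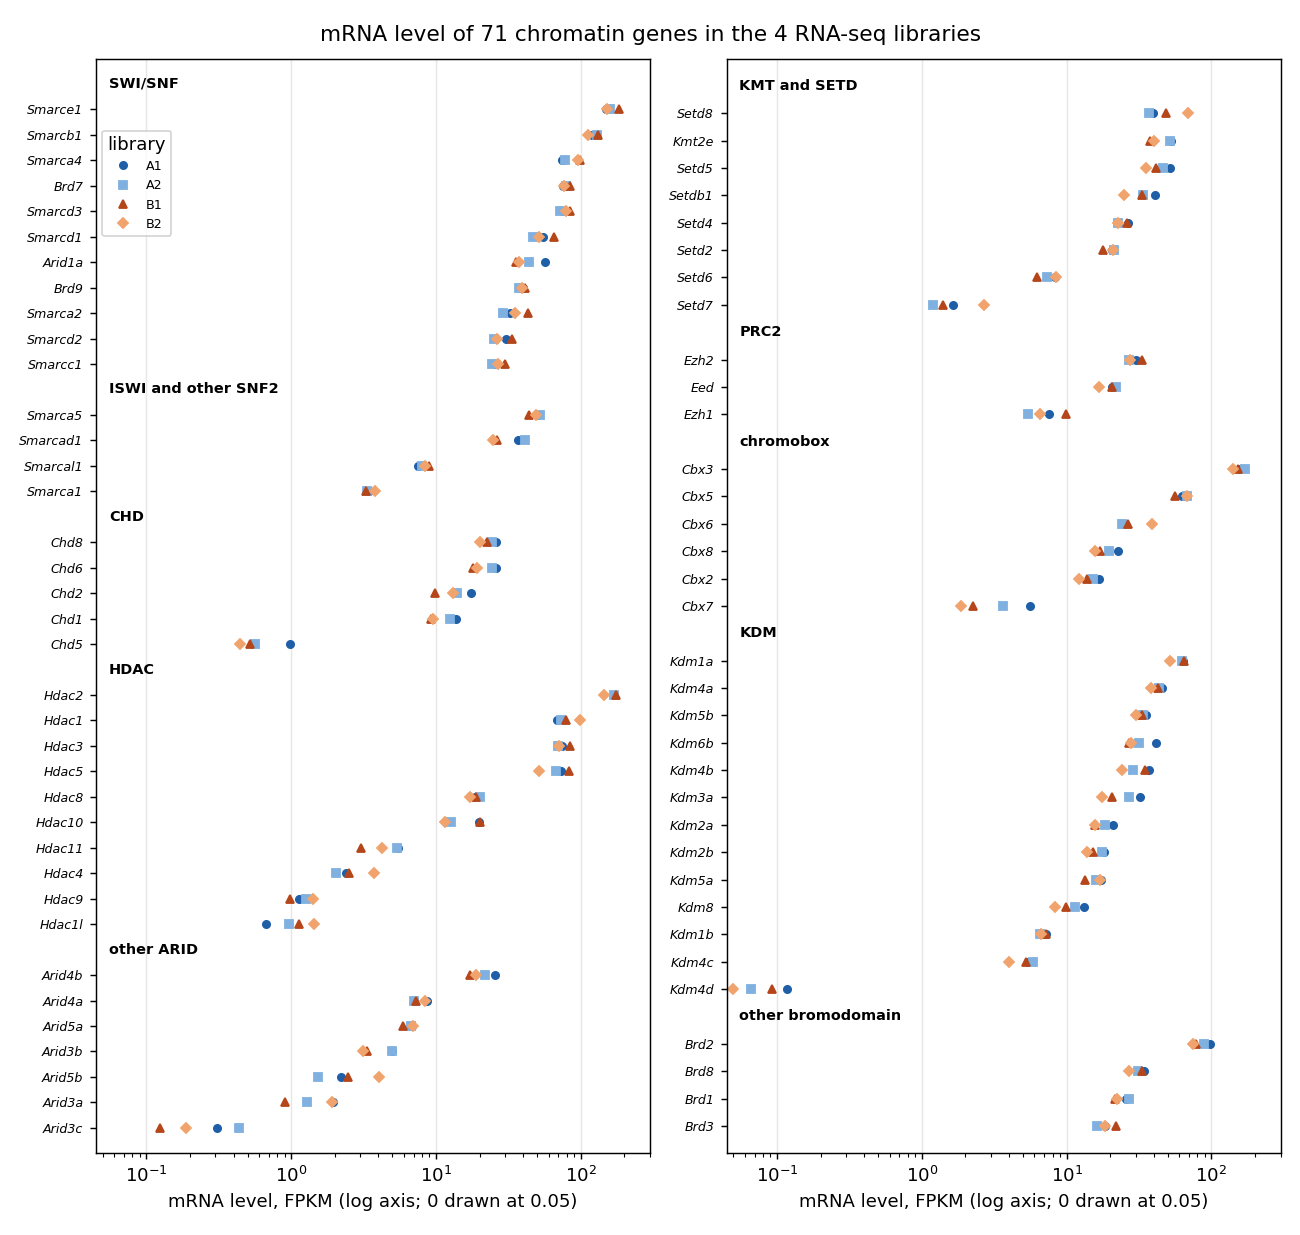
Level of 71 of the 72 genes in the 4 RNA-seq libraries (FPKM on a log axis, genes grouped by class and ordered by mean within a class, symbols for libraries A1, A2, B1 and B2, a value of 0 drawn at 0.05). The SWI/SNF genes all lie above 10 FPKM, while the deacetylases span from about 1 FPKM (*Hdac1l*, mean 1.05) to the highest member of all (*Hdac2*, mean 165).

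Below 1 FPKM were 3 members. *Chd5*, a CHD remodeller known from neurons, had 0.985, 0.562, 0.517 and 0.442 FPKM in A1, A2, B1 and B2. *Arid3c*, of the ARID DNA-binding family, had 0.307, 0.434, 0.124 and 0.188 FPKM. *Kdm4d*, a histone demethylase of the JMJD2 family known for its expression in testis, had 0.117, 0.0660 and 0.0925 FPKM and was listed at 0 in B2. With means below 1 FPKM they entered no comparison between cultures.

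The start of a gene was looked at through the RefSeq window of 300 bases (250 before and 50 after the annotated start, build GRCr8), which was found for 62 of the 72 members. CpG pairs are the sites of DNA methylation and are frequent at the starts of widely expressed genes. The members had a median CpG ratio (observed over expected from C and G content) of 0.830, compared with 0.549 over 19005 protein-coding genes, and 53 of the 62 (85.5%) had a ratio of at least 0.6, compared with 46.5%. The windows below are shown because they hold the extremes of the group, and CpG pairs are in capitals. *Hdac2* had the highest mRNA level (chr20:42102877-42103176, plus strand, 33 CpG, ratio 0.902) and *Kdm4d* the lowest (chr8:19586363-19586662, minus strand, 19 CpG, ratio 0.844). *Cbx7* (chr7:113358297-113358596, minus strand, 26 CpG), *Kdm3a* (chr4:105233321-105233620, minus strand, 24 CpG) and *Setd8* (chr12:37817977-37818276, minus strand, 43 CpG, named *Kmt5a* in RefSeq) were the 3 genes past 1.5-fold between cultures on the log2(FPKM + 1) scale among expressed members, and *Arid3b* (chr8:67134134-67134433, minus strand, 1 CpG, ratio 0.0795) had the lowest CpG ratio.
Hdac2: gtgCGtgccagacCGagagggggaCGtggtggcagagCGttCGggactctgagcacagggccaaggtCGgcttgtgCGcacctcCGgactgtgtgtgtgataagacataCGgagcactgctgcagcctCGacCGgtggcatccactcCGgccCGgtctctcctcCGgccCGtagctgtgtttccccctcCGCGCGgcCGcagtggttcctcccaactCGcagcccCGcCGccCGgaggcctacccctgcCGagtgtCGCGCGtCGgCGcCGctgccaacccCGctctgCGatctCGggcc
Kdm4d: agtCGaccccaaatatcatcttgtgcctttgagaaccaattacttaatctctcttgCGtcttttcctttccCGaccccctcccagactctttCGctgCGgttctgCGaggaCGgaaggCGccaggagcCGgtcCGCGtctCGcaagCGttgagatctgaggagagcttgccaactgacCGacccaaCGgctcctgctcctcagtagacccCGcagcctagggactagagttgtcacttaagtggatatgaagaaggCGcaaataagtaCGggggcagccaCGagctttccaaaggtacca
Cbx7: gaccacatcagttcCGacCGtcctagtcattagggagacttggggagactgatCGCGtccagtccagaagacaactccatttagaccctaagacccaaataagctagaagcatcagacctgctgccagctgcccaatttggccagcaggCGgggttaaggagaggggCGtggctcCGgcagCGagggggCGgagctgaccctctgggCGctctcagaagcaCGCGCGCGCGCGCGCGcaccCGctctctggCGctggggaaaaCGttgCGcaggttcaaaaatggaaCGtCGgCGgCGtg
Kdm3a: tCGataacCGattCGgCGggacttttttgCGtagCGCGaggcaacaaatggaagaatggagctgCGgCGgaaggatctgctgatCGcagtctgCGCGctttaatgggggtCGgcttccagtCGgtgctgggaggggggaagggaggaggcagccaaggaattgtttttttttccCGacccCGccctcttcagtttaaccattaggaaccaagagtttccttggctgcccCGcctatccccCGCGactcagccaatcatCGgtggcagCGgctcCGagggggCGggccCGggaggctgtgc
Setd8: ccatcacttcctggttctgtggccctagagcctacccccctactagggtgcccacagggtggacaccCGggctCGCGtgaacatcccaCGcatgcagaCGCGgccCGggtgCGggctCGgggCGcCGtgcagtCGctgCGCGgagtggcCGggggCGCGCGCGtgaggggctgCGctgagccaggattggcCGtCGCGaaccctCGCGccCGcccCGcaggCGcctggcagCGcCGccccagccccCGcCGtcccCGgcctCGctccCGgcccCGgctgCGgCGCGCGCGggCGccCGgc
Arid3b: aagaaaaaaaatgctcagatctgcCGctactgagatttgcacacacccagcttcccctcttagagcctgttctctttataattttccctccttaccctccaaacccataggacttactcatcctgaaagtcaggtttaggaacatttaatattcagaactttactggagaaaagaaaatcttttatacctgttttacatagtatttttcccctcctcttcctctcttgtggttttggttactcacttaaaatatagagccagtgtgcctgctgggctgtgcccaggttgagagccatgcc

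The capitals crowd the windows of *Hdac2* and *Setd8*, and the *Cbx7* window holds an unbroken run of CG steps, whereas that of *Arid3b* is nearly without them. The *Kdm4d* window was also rich in CpG although its mRNA was almost undetected. Across the 62 genes the CpG ratio and the mean FPKM had a Spearman rho of 0.33, given as a description over genes of the same libraries. Of the 14 members at 50 FPKM or more, 12 had a ratio of at least 0.6. Of the 32 at 10 to 50 FPKM 29 did, and of the 16 below 10 FPKM also 12.

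Short letter patterns were searched in the same windows on both strands. GGGCGG, the GC box, itself holds a CpG. It was found in 44 of 62 members (71.0%), compared with 43.1% of protein-coding genes and 34.9% of all 27457 genes in the table. These backgrounds were not limited to expressed genes. By level, 14 of the 14 members at 50 FPKM or more had it, 20 of 32 at 10 to 50 FPKM and 10 of 16 below 10 FPKM. TATAAA was found in 3 members (4.84%), *Arid3b*, *Arid5b* and *Brd2*, compared with 13.1% of protein-coding genes and 14.3% of all genes. CCGGAAG, an ETS-type pattern, was found in 9 members (14.5%), compared with 11.2% and 9.22%. Of the 3 patterns the GC box stood farthest above the background. The GC content of the windows had a median of 63.0% in the members and 55.3% in protein-coding genes. A match is a run of letters and not a shown binding site.

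**Figure D2:**
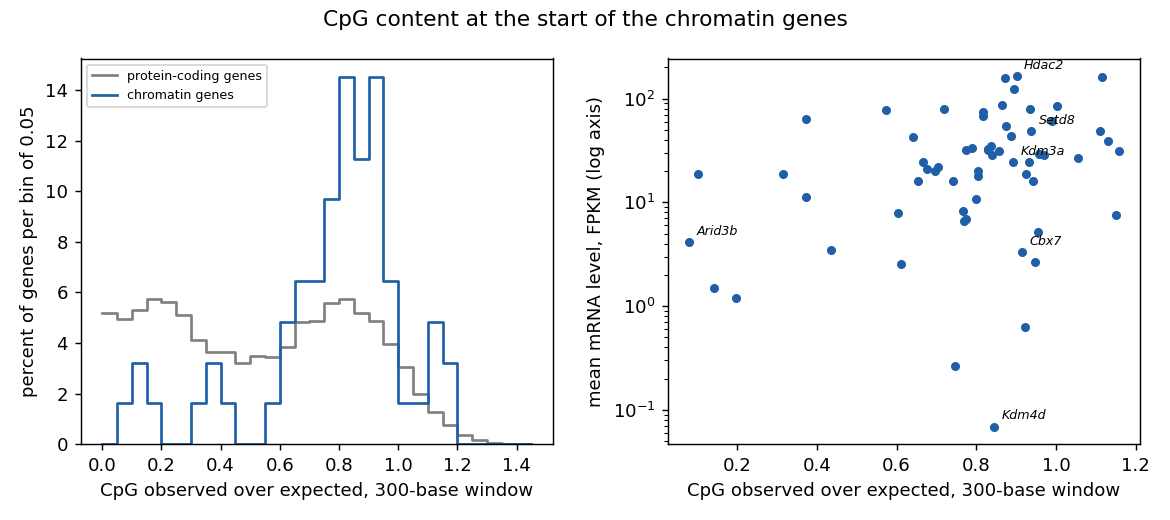
Left, distribution of the CpG observed over expected ratio in the 300-base start windows of the 62 matched members and of protein-coding genes (percent of genes per bin of 0.05). Right, mean mRNA level (FPKM, log axis) of the 62 members against that ratio, with *Hdac2*, *Setd8*, *Kdm3a*, *Cbx7*, *Arid3b* and *Kdm4d* labelled. Most members lie at ratios of at least 0.6, and *Kdm4d*, the lowest in mRNA, lies among them.

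SWI/SNF, the BAF and PBAF complexes of mammals, was the class expressed at the highest level, with all 11 members between 26.8 and 160 FPKM. *Smarce1*, a DNA-binding subunit of the complex, was the highest, with 148 and 158 FPKM in A1 and A2 and 183 and 151 in B1 and B2 (mean 160 ± 9.72). *Smarcb1*, a core subunit, had 120, 130, 131 and 111 FPKM. Libraries of A and B overlapped for both genes. RefSeq lists 11 pseudogenes of *Smarce1*, so reads may be shared with them and its level is uncertain. *Smarcc1*, a scaffold subunit, was the lowest of the class, with 25.7 and 24.5 FPKM in culture A and 30.03 and 26.7 in culture B (mean 26.8 ± 2.31).

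The motor of the complex is either *Smarca4* (BRG1) or *Smarca2* (BRM). *Smarca4* had 74.2 and 77.2 FPKM in A1 and A2 and 98.4 and 95.5 in B1 and B2, and *Smarca2* had 32.6, 28.8, 43.0 and 35.0. Each was higher in every library of B than of A (all genes, 28.1%). The ratio of *Smarca4* to *Smarca2* was 2.46 in culture A and 2.49 in culture B. Its log2 values were 1.19 and 1.42 in A1 and A2 and 1.19 and 1.45 in B1 and B2. In both cultures the ratio was lower in the library numbered 1 than in the library numbered 2. *Arid1a*, the ARID subunit of BAF, had the opposite order, with 57.0 and 43.8 FPKM in A1 and A2 and 35.7 and 37.5 in B1 and B2 (log2 difference of B minus A on FPKM + 1, -0.45). Its A1 value stood well above its A2 value, and all the same the lowest library of A was above both of B.

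The SMARCD proteins are alternative subunits. *Smarcd3* had 74.8, 72.4, 84.4 and 78.9 FPKM and *Smarcd1* had 54.7, 46.7, 65.3 and 51.1, while *Smarcd2* had a mean of 28.9 ± 1.68. *Smarcd3* exceeded *Smarcd1* in each library, by 1.45 times in culture A and 1.40 in culture B, and the log2 ratio of *Smarcd1* to *Smarcd3* was again nearer to 0 in A1 (-0.45) and B1 (-0.37) than in A2 (-0.63) and B2 (-0.63). Of the bromodomain subunits, *Brd7* of PBAF had 75.3, 79.2, 83.9 and 76.6 FPKM and *Brd9* of the non-canonical complex had 39.9, 37.3, 41.2 and 39.0. The ratio of *Brd7* to *Brd9* was 2.00 in both cultures, from log2 ratios of *Brd9* to *Brd7* between -0.92 and -1.09 in single libraries.

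Subunits outside the name rule that are known to mark the progenitor form (npBAF) and the neuronal form (nBAF) were compared as fixed lists of 4 genes each. The npBAF genes *Actl6a*, *Phf10*, *Dpf2* and *Ss18* summed to 193, 180, 205 and 174 FPKM in A1, A2, B1 and B2, and the nBAF genes *Actl6b*, *Dpf1*, *Dpf3* and *Ss18l1* to 26.1, 22.5, 27.2 and 21.4. In every library each npBAF gene stood above each nBAF gene, the lowest npBAF mean being 28.6 FPKM (*Phf10*) and the highest nBAF mean 7.998 (*Dpf1*). By partner, the actin-like subunit *Actl6a* had a mean of 30.5 ± 1.34 FPKM and its neuronal counterpart *Actl6b* 6.39 ± 0.713, and *Ss18* had 51.8 ± 3.59 against 3.32 ± 0.661 for *Ss18l1*. Of the 6 other SWI/SNF partners in the tables, *Bcl7c* was the highest, with 91.9 and 106 FPKM in culture A and 195.1 and 182 in culture B. *Bcl11b*, a zinc finger partner known from neurons, had 2.08, 2.09, 1.15 and 0.0518 FPKM, and *Gltscr1l* had 10.1, 10.3, 4.30 and 8.06. These 3 were past 1.5-fold between cultures, *Bcl7c* higher in B and the other two lower in B, a size passed by 16.3% of all genes at 1 FPKM or more. On the log2 scale, where 1.5-fold is 0.585, *Bcl11b* had a difference of -0.52 without B2 and *Gltscr1l* of -0.31 without B1, so these calls each rest on 1 library.

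**Figure D3:**
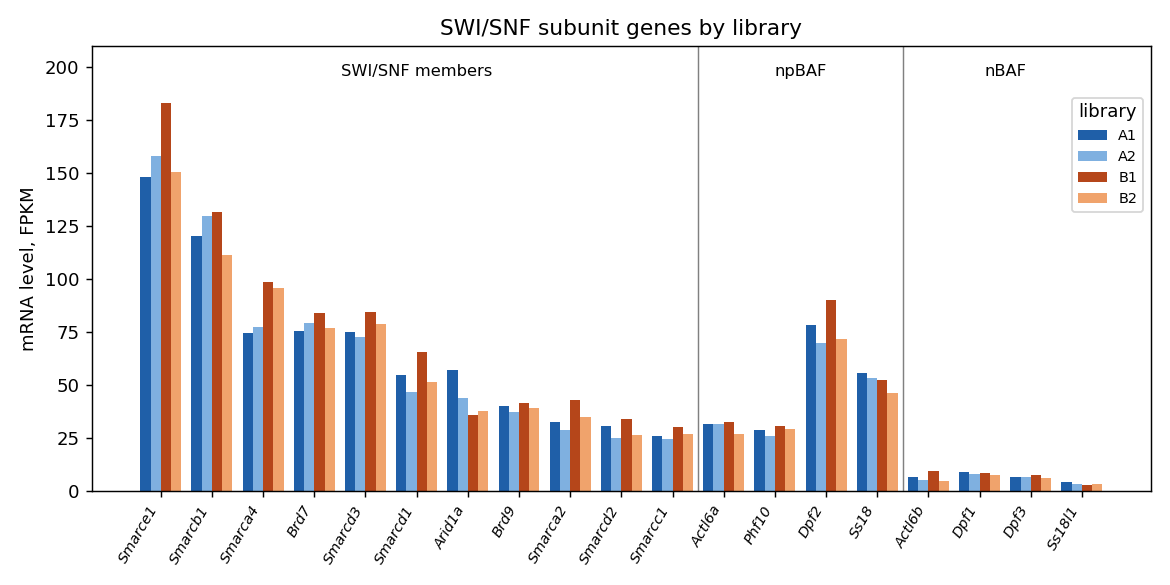
Level (FPKM, linear axis from 0) of the 11 SWI/SNF members and of the 4 npBAF and 4 nBAF partner genes, with a bar for each of the libraries A1, A2, B1 and B2. The npBAF bars all stand above the nBAF bars, which summed to between 21.4 and 27.2 FPKM per library.

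Among the ISWI and other SNF2-type remodellers the order was steep. *Smarca5* (SNF2H), the common ISWI motor of dividing cells, had 50.01, 51.9, 44.2 and 49.1 FPKM, whereas *Smarca1* (SNF2L), its X-linked relative known from neurons, had 3.43, 3.32, 3.28 and 3.78. *Smarca5* exceeded *Smarca1* by 15.1 times in culture A and 13.2 times in culture B. *Smarcad1*, which acts at replicated chromatin, had 36.9 and 40.9 FPKM in A1 and A2 and 26.3 and 24.9 in B1 and B2, a log2 difference of -0.58 that lies just below the 1.5-fold line. *Smarcal1*, a remodeller of stalled replication forks, had a mean of 8.16 ± 0.639. The non-catalytic ISWI partners in the tables (*Baz1a*, *Baz1b*, *Baz2a*, *Baz2b* and *Cecr2*) were lower in both libraries of B in 5 of 5 cases (all genes, 32%), and *Baz2a* (33.0, 19.8, 16.8 and 16.7 FPKM), *Baz2b* (16.9, 14.0, 8.75 and 9.87) and *Cecr2* (6.02, 5.98, 3.16 and 3.30) were past 1.5-fold (3 of 5, all genes 16.3%). Without A1 the log2 difference was -0.23 for *Baz2a* and -0.54 for *Baz2b*, under the 1.5-fold line.

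All 4 expressed CHD remodellers were at moderate levels. *Chd8*, known for its mutations in autism, was the highest, with 25.8, 24.5, 22.4 and 20.1 FPKM, followed by *Chd6* (mean 21.99 ± 4.67), *Chd2* (13.6 ± 2.99) and *Chd1* (11.2 ± 2.62). Each of the 4 was lower in both libraries of B than in both of A, with log2 differences from -0.24 for *Chd8* to -0.44 for *Chd1*, where 32% of all genes were lower without overlap.

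The histone deacetylases covered a wide range. *Hdac2*, a class I enzyme (rn6, chromosome 20, 43084870 to 43108198), had 170, 169 and 175 FPKM in A1, A2 and B1 and 144 in B2 (mean 165 ± 7.04), which placed it at rank 600 of 17337. Its near relative *Hdac1* had 68.8 and 73.4 FPKM in culture A and 79.1 and 97.9 in culture B, and RefSeq lists 18 pseudogenes of *Hdac1*, so its level is uncertain. *Hdac2* exceeded *Hdac1* in every library, by 2.38 times in culture A and 1.80 times in culture B. The lower ratio in culture B rested on B2, since the log2 ratio was 1.30, 1.21 and 1.15 in A1, A2 and B1 and 0.56 in B2. *Hdac3*, the enzyme of the NCoR complex, had 74.5, 69.2, 83.6 and 70.4 FPKM, and the X-linked *Hdac8* had 18.6, 20.1, 18.8 and 17.2.

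The class II enzymes are known to shuttle between nucleus and cytoplasm, and their levels were unequal. *Hdac5* stood with the class I enzymes at a mean of 68.5 ± 2.53 FPKM, although B1 (82.3) and B2 (51.1) were far apart, while *Hdac4* had a mean of 2.66 ± 0.632 and *Hdac9* of 1.20 ± 0.000735. The near-zero SD of *Hdac9* comes from averaging, since its libraries ranged from 0.979 to 1.42 FPKM. *Hdac10* was split by library number and not by culture, with 19.96 FPKM in A1 and 20.005 in B1 and 12.6 and 11.6 in A2 and B2. *Hdac11*, the class IV enzyme, had 5.45, 5.35, 3.04 and 4.25 FPKM, so *Hdac3* exceeded it by 13.3 times in culture A and 21.2 times in culture B. *Hdac1l*, which is close in name to *Hdac1* and spans less than any other member of its family, was the lowest, with 0.667, 0.959, 1.13 and 1.43 FPKM.

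Of the co-repressors that carry deacetylases, *Sin3b* was the highest (mean 178 ± 11.3 FPKM), and 5 of 7 were lower in both libraries of B (all genes, 32%), none past 1.5-fold. The NuRD partners of *Hdac1* and *Hdac2* had a median of 61.3 FPKM over 6 genes, with 0 lower and 2 higher in B without overlap (all genes, 32% and 28.1%). The sirtuins, the NAD-dependent deacetylases, had a median of 44.6 FPKM over 6 genes.

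Of the 8 KMT and SETD methyltransferases, 6 had means between 20 and 50 FPKM. *Setd8* (KMT5A), which places a single methyl group on histone H4 and is needed in the cell cycle, had the highest mean, with 39.6 and 37.2 FPKM in A1 and A2, 48.5 in B1 and 68.6 in B2 (mean 48.5 ± 14.2). This rank rested on B2, without which its mean was 43.4 FPKM, below *Setd5* (45.3) and *Kmt2e* (45.02), and RefSeq lists 2 pseudogenes of this gene. *Kmt2e* had 52.8, 51.5, 37.9 and 40.2 FPKM, *Setd5* a mean of 43.8 ± 7.52 and *Setdb1*, which methylates histone H3 at silenced repeats, 33.2 ± 5.80. These 3 of the 8 were lower in both libraries of B (all genes, 32%), *Setdb1* only narrowly, with 33.5 FPKM in A2 and 33.0 in B1. *Setd4* (24.5 ± 0.0289), *Setd2* (20.1 ± 1.16) and *Setd6* (7.57 ± 0.377) overlapped between cultures. The small SD of *Setd4* comes from averaging, since it had 26.6, 22.5, 26.3 and 22.8 FPKM in A1, A2, B1 and B2. *Setd7* was the lowest of the class, with 1.64, 1.19, 1.41 and 2.68 FPKM.

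The COMPASS subunits that serve the KMT2 enzymes (*Wdr5*, *Ash2l*, *Rbbp5*, *Dpy30* and 4 others) ranged from a mean of 10.9 FPKM (*Hcfc1*) to 94.9 (*Dpy30*), with 6 of 8 lower in both libraries of B (all genes, 32%) and none past 1.5-fold. Of the acetyltransferases, *Kat2a* (GCN5) was past 1.5-fold, with 127, 76.9, 74.2 and 52.1 FPKM, and 4 of 7 were lower in both libraries of B (all genes, 32%). The *Kat2a* value of A1 was far above the other 3, and its difference was -0.28 without A1 and -0.46 without B2, both under the 1.5-fold line of 0.585 on the log2 scale.

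Of Polycomb repressive complex 2, which methylates histone H3 to keep genes silent, 3 genes were measured. *Ezh2*, the main catalytic subunit of dividing cells, had 29.998, 26.8, 33.1 and 27.3 FPKM, and *Ezh1*, its relative in resting cells, had 7.504, 5.39, 9.91 and 6.52. *Ezh2* exceeded *Ezh1* by 4.40 times in culture A and 3.67 times in culture B. *Eed*, the subunit that reads the mark, had 20.5, 21.9, 20.6 and 16.8 FPKM. The libraries of A and B overlapped for all 3 genes. The 6 partners in the tables had a median of 18.6 FPKM. Of these, *Rbbp4* (mean 119 FPKM) and *Rbbp7* (mean 114) were several times higher than the 3 genes. Means of *Phf1* (25.3), *Mtf2* (11.9), *Aebp2* (5.10) and *Phf19* (2.37) were below that of *Ezh2* (29.3). *Rbbp4* and *Rbbp7* are known as parts of other chromatin complexes too.

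Chromobox proteins read methylated histone H3 either for heterochromatin (*Cbx3*, *Cbx5*) or as Polycomb complex 1 subunits (*Cbx2*, *Cbx6*, *Cbx7*, *Cbx8*). *Cbx3* (HP1 gamma) had 159, 170, 153 and 142 FPKM (mean 156 ± 11.98) and is uncertain through 5 pseudogenes in RefSeq, and *Cbx5* (HP1 alpha) had a mean of 63.4 ± 2.69. The Polycomb chromobox genes were lower and ordered *Cbx6*, *Cbx8*, *Cbx2* and *Cbx7* by mean. *Cbx6* had 24.5, 24.1, 26.5 and 38.6 FPKM, so B2 stood alone, *Cbx8* had a mean of 18.8 ± 3.38 and *Cbx2* had 16.8, 15.2, 13.8 and 12.1.

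*Cbx7* (rn6, chromosome 7, 121136067 to 121153383) had 5.60 and 3.63 FPKM in A1 and A2 and 2.26 and 1.86 in B1 and B2. It was the lowest chromobox gene and, of all expressed members, the one with the largest difference between cultures (-0.88 on the log2(FPKM + 1) scale). *Cbx2* exceeded *Cbx7* by 3.47 times in culture A and 6.29 times in culture B, and this order held in each library. Of the 11 Polycomb complex 1 partners in the tables, *Bmi1* was past 1.5-fold and lower in B (1 of 11, all genes 16.3%), with 28.8, 23.0, 16.1 and 12.9 FPKM. *Pcgf1* was listed at 0 in B2 and had 40.9, 33.8 and 44.9 FPKM in A1, A2 and B1, a single-library zero that was chosen for mention after its values were seen.

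KDM demethylases formed the largest class, and 10 of 13 had at least 10 FPKM. *Kdm1a* (LSD1), the flavin-dependent enzyme of the CoREST complex, was the highest, with 64.0, 62.4, 65.1 and 52.0 FPKM, and its relative *Kdm1b* had 7.22, 6.54, 7.16 and 6.68. *Kdm1a* exceeded *Kdm1b* by 9.19 times in culture A and 8.46 times in culture B. *Kdm5b* had 35.1, 33.6, 32.9 and 30.2 FPKM and *Kdm5a* 17.3, 16.0, 13.4 and 16.96, a ratio of 2.06 in culture A and 2.08 in culture B. The libraries of B were further apart, with log2 ratios of 1.29 in B1 and 0.83 in B2 against 1.02 and 1.07 in A1 and A2.

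Among the Jumonji enzymes, *Kdm3a* (rn6, chromosome 4, 99503176 to 99546458), which takes methyl groups off histone H3 and is known to be induced by low oxygen, had 32.1 and 27.0 FPKM in A1 and A2 and 20.6 and 17.5 in B1 and B2 (mean 24.3 ± 7.43). *Kdm6b* (JMJD3), which removes the Polycomb mark, had 41.5, 31.7, 27.2 and 27.7 FPKM. Both were lower in every library of B. The other Jumonji members at 1 FPKM or more lay between *Kdm4a* (mean 42.5 ± 2.62) and *Kdm4c* (5.12 ± 0.721), with *Kdm4b* at 31.1 ± 2.35, *Kdm2a* at 17.8 ± 2.86, *Kdm2b* at 16.1 ± 2.37 and *Kdm8* at 10.7 ± 2.29. Of the 12 KDM genes at 1 FPKM or more, 8 were lower in both libraries of B and 0 higher (all genes, 32% and 28.1%).

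The other bromodomain genes, readers of acetylated histones, were led by *Brd2*, with 98.3, 89.6, 77.9 and 75.05 FPKM. That value is the sum of 2 loci of 7208 bases each on chromosome 20 of rn6, which had nearly the same FPKM in each library (49.5 and 48.8 in A1), so reads may be shared between copies. *Brd8* (31.3 ± 1.78), *Brd1* (24.2 ± 3.12) and *Brd3* (mean 18.8 ± 2.03, the lowest) followed.

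The other ARID genes, a family of DNA-binding proteins, were the least expressed class, with 1 of 7 at 10 FPKM or more. This was *Arid4b*, a SIN3 complex subunit, with 25.6, 21.9, 17.1 and 18.96 FPKM. Its deposited read depth per FPKM was 0.5 of the library median in each of the 4 libraries, while the other 71 members lay within 5% of it, and its interval overlaps *Hecw1* on the opposite strand, so its level is uncertain. *Arid4a* (7.82 ± 0.0227), *Arid5a* (6.58 ± 0.232), *Arid3b* (4.11 ± 1.22), *Arid5b* (2.57 ± 0.975) and *Arid3a* (1.51 ± 0.139) were below 10 FPKM. The small SD of *Arid4a* comes from averaging, since it had 8.61, 7.06, 7.26 and 8.35 FPKM in A1, A2, B1 and B2. *Arid5b* had 2.21 and 1.54 FPKM in culture A and 2.45 and 4.07 in culture B, with *Tmem26* on the opposite strand of its interval.

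Related genes kept their order. Of 22 related pairs drawn up, 11 had both genes in the tables, and in 11 of 11 the same gene was higher in all 4 libraries, a count that was 10 when only the highest locus of a name was used. The largest ratios were those of *Hdac3* to *Hdac11* and *Smarca5* to *Smarca1*, and the smallest was that of *Smarcd3* to *Smarcd1*. The ratio itself differed between cultures most for *Cbx2* to *Cbx7* (by 0.86 on the log2 scale) and *Hdac3* to *Hdac11* (by 0.67, with log2 ratios of 3.77 and 3.69 in culture A against 4.78 in B1 and 4.05 in B2), and least for *Brd9* to *Brd7* and *Kdm5b* to *Kdm5a* (0.01). These pairs hold genes that were chosen as known relatives and not as independent observations.

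**Figure D4:**
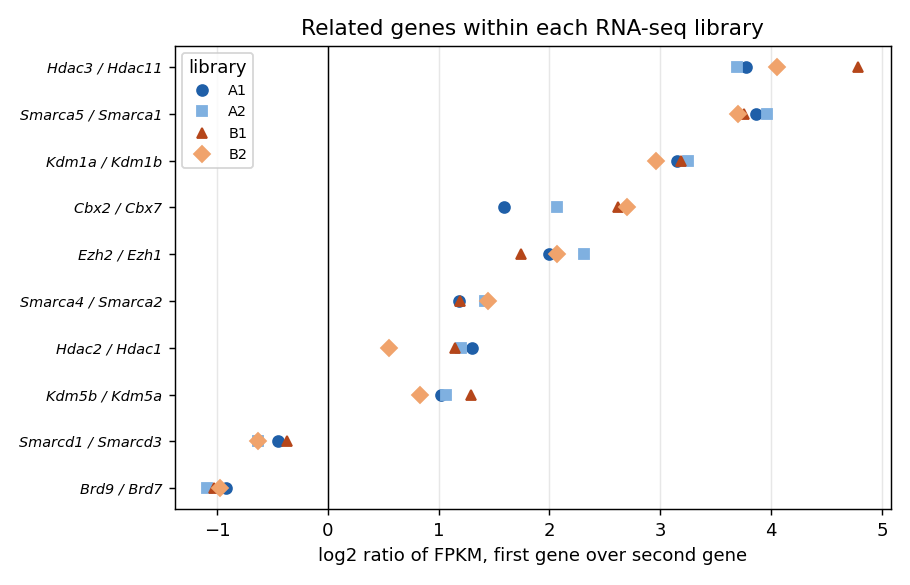
Log2 ratio of FPKM between related genes (first gene over second gene) in each of the 4 libraries, with symbols for A1, A2, B1 and B2 and a line at 0 where both genes are equal. The plot holds 10 of the 11 pairs, and for each of them all 4 points lie on the same side of 0. B1 for *Hdac3* over *Hdac11* (4.78) is the farthest point, and *Smarcd1* over *Smarcd3* lies nearest to 0.

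Cultures A and B were compared to ask how stable this group is between independent preparations of the same cells. A gene was counted as differing when its culture means differed by a given fold after adding 1 to the FPKM and taking log2 (which makes differences of low genes look smaller), when its mean was at least 1 FPKM and when the libraries of A and B did not overlap. At 2-fold, 0 of the 69 members were counted, compared with 6.2% of all genes tested (650 of 10481). At 1.5-fold 3 members were counted (4.35%), compared with 16.3% of all genes, and among genes of at least 10 FPKM 2 of 52 (3.85%), compared with 12.8%. The 3 genes were *Cbx7* (-0.88) and *Kdm3a* (-0.61), lower in B, and *Setd8* (0.60), higher in B, and over all genes 6.85% were counted lower and 9.44% higher. Each of the shares of the members was below that of all genes, and no test of that difference was made.

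*Cbx7* was counted with any 1 library left out, in TPM and with other scaling of the libraries, and it passed 2-fold in TPM and without A2. *Setd8* rested on its high B2 value and had a difference of 0.33 without B2, under the 1.5-fold line of 0.585, and it was also under the line in TPM and without A2 (0.55 each). *Kdm3a* fell under the line without A1 (-0.48) or without B2 (-0.50). Without B2 3 of 68 members were counted, *Cbx7*, *Chd2* and *Hdac11*, compared with 16.5% of all genes, and without B1 7 were, compared with 22.6%. Just inside and outside the line were *Setd8* (0.60), *Smarcad1* (-0.58) and *Arid5b* (0.56). Of the technical libraries themselves, 1 member (*Hdac10*) differed by 1.5-fold between A1 and A2 (all genes, 1.57%) and 4 members (*Arid3a*, *Hdac5*, *Hdac10* and *Setd7*) between B1 and B2 (all genes, 12.7%). *Hdac10* was lower in A2 than in A1 by a log2 difference of -0.62 and lower in B2 than in B1 by -0.74. By library number, 15 of the 69 members (21.7%) were higher in A1 and B1 than in A2 and B2 without overlap (all genes, 10.9%) and 3 (4.35%) were lower (all genes, 10.7%). What the library numbers share across cultures was not tested.

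By direction alone, 27 of the 69 members (39.1%) were lower in both libraries of B than in both of A, compared with 32% of all genes, and 12 (17.4%) were higher, compared with 28.1%. The other 30 overlapped. The median difference of the members was -0.10 and that of all genes -0.03 on the log2(FPKM + 1) scale. The number higher in B depended on single libraries. Without B2 it was 25 (36.8%, all genes 40.3%) and without A1 it was 23 (33.3%, all genes 33.2%). There the share of the members no longer stood far below that of all genes. The gap stayed without A2, with 13 (19.1%, all genes 35.2%), and without B1, with 17 (24.6%, all genes 40.7%). The number lower in B was 35 without B2 (51.5%; all genes 43.8%) and 31 without A1 (44.9%; all genes 39.4%).

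By class, and read against the 32% of all genes lower and 28.1% higher, SWI/SNF had 1 gene lower and 4 higher in B, the CHD class 4 lower and 0 higher, and the deacetylases 1 lower and 3 higher. The chromobox class had 4 lower and 1 higher, the KMT and SETD class 3 lower and 1 higher, and Polycomb complex 2 none in either direction. For a given gene, leaving out a library can only keep or add such a call, and without B2 43.8% of all genes were lower and 40.3% higher. Without B2 SWI/SNF had 1 lower and 10 higher of 11, the deacetylases 2 and 6 of 9 (*Hdac1l* falls under 1 FPKM there), the KMT and SETD class 5 and 1 of 8, and Polycomb complex 2 had 0 and 2 of 3. Without A1, where 39.4% and 33.2% of all genes were lower and higher, SWI/SNF had 7 higher, the KMT and SETD class 3 higher, and Polycomb complex 2 had 1 lower and 2 higher. Without B1, where 47.4% and 40.7% of all genes were lower and higher, the deacetylases had 5 lower and 4 higher, the KMT and SETD class 3 and 3, SWI/SNF 2 and 4, and Polycomb complex 2 had 1 and 0. Without A2, where these shares were 40.2% and 35.2%, SWI/SNF had 6 higher. With any 1 library left out the CHD class could only keep its 4 lower and 0 higher, so this is no sign of stability. The chromobox class had 4 or 5 lower and 1 higher, of which 4 and 1 were likewise fixed. In the partner lists, 83 of 98 genes were in the tables, 38 of them lower in B and 10 higher without overlap (all genes, 32% and 28.1%), and 8 were past 1.5-fold (all genes, 16.3%), 7 of them lower. Beside these values stand the marker sums given above, with mesenchymal and meningeal markers higher in B (12 of 12, no overlap) and progenitor markers lower (8 of 11). Markers of cycling cells summed to 212 and 234 FPKM in A1 and A2 and 213 and 293 in B1 and B2, and 4 of 6 were higher in both libraries of B, 2 of them past 1.5-fold, and 0 lower. *Pcna* alone had 129.3, 144.2, 105.2 and 148.2 FPKM and overlapped between cultures, and the other 5 summed to 82.6, 89.4, 108 and 145 FPKM. The part of these differences in the values of the chromatin genes was not tested.

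**Figure D5:**
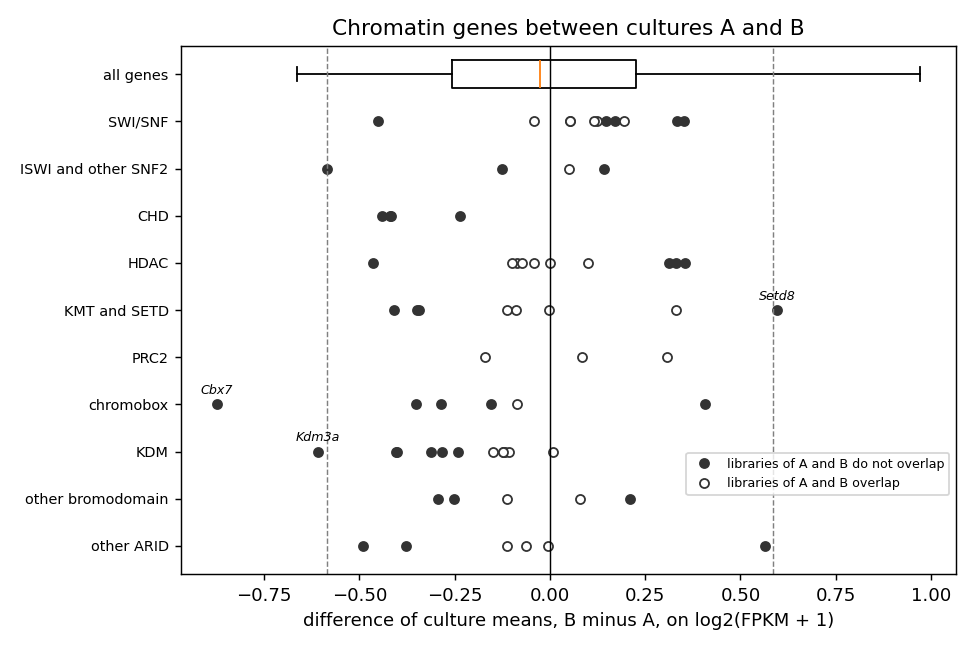
Difference of culture means, B minus A, on the log2(FPKM + 1) scale for the 69 members at 1 FPKM or more, by class, with filled points where the libraries of A and B do not overlap and open points where they do. The box shows the middle 50% of all 10481 genes with the median as a line and whiskers from the 5% to the 95% point, and dashed lines mark 1.5-fold, which *Cbx7*, *Kdm3a* and *Setd8* pass.

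The members lay on 19 chromosomes, 2 of them on X (*Hdac8* and *Smarca1*) and 0 on Y. The median span in rn6 of the 69 members at 1 FPKM or more was 40.8 kb, compared with 20.2 kb over all genes at that level. Span and the difference between cultures were unrelated in rank (Spearman rho -0.05 over 69 members and -0.04 over all 10481 genes, as descriptions across genes of the same libraries). Besides *Arid4b* and *Arid5b*, 3 members overlap a gene on the opposite strand (*Cbx8*, *Setdb1* and *Smarcc1*) and 4 a gene on the same strand (*Arid3a*, *Brd3*, *Cbx2* and *Cbx5*). In addition *Hdac2*, *Setdb1*, *Smarca2* and *Cbx2* have 1 pseudogene each in RefSeq. Whether reads were counted by strand is not given in the sources used here.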

How the data were processed

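PolyA-selected RNA of cultured rat cortical progenitors was measured in 4 libraries. The authors aligned reads to rn6 with STAR and deposited 1 table per library in the layout of StringTie. The submitters' processing notes also list cutadapt and HISAT, the methods name Rsubread and DESeq2 for FPKM, and tool versions are not given in the sources used here. The deposited FPKM were used without change. TPM, also from the authors, sum to 1000000 per library. Deposited coverage (read depth per base, unscaled) served to compare depth between libraries. Read totals were not used, and no interval of counting error was given.

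Rows of the same gene name were summed, technical libraries were averaged within a culture, and mean ± SD was taken over 2 cultures. Differences are of log2(FPKM + 1) with a pseudocount of 1, and genes were counted at a mean of at least 1 FPKM, at least 2-fold or 1.5-fold, with all libraries of either culture above all of the other. Grouping followed the sample titles. The counting was tested on simulated data, but setting and outcome are not given here, and nothing about these libraries is drawn from it. The members, classes, pairs, partner and marker lists were chosen with earlier results of these data known. Named with values were the highest and lowest member of each class, the genes of the pairs, members past 1.5-fold, at 0 in a library or on X, npBAF and nBAF subunits and other partners past 1.5-fold. Further members and partners are named to account for the group, after their values were seen. Start windows came from RefSeq (GRCr8, matched by symbol, the first window of a gene), while loci are those of the deposited tables (rn6). Pseudogenes were counted by name in RefSeq. Alternatives were TPM, a pseudocount of 0.1, other minimum levels, no overlap condition, the highest row of a name, median ratio scaling and each library or culture left out. Counts by direction and class and the partner calls with a library left out were added after the data were seen. The values of 1 member are not reported here, although it is included in the counts. Protein sequences were not used here. Computation used scipy 1.17.1, pandas 2.3.3 and numpy 2.4.6 under Python 3.11.15, and matplotlib 3.10.9 drew the figures.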

Additional observations from a re-analysis of the deposited data

Results flagged for a closer look

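In groups of 4 libraries, 92 values were examined for a library far from the other 3 by Dixon's ratio, whose limit chance passes in about 1 of 20 groups. Of these, 2 stood apart, both in B2. The depth of B2, as the read depth per base that corresponds to 1 FPKM, was 6.83, while the other 3 libraries had 22.7 to 24.4. *Cbx6*, a Polycomb chromobox gene, had 38.6 FPKM in B2 and 24.1 to 26.5 in the other 3, which makes 1 of 72 members. The part of the low depth of B2 in the *Cbx6* value was not tested.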

How the results depend on the processing

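Of 81 alternatives for 9 counts and levels, 72 stayed within 1.5 times the count or within 1 SD of the level. The median of the members was 39.9 in TPM, which is another scale, and 20.7 FPKM without culture A. The count at 2-fold was 1 in place of 0 (*Cbx7*) in TPM and with a pseudocount of 0.1, and between 0 and 1 with 1 library left out, the 1 being without A2. The count at 1.5-fold was 7 with a pseudocount of 0.1 (all genes 20.3%) and between 3 and 7 with 1 library left out, the 7 being without B1. With median ratio scaling 4 members were past 1.5-fold, *Arid5b* and *Setd8* higher in B and *Cbx7* and *Kdm3a* lower, while as deposited 1 was higher and 2 lower. Median ratio scaling moved the median difference of all genes by 0.02 and TPM by -0.05. The number of members higher in B without overlap was between 13 and 25 with 1 library left out (23 without A1, 25 without B2). In these cases the cause was not tested. Of 24 alternatives for *Cbx7*, *Kdm3a* and *Setd8*, 5 ended the call and 0 reversed a direction. Of 66 alternatives for the pair ratios 18 moved the log2 ratio by over 1 SD and 0 reversed the order of the means. No paired analysis was possible because there was 1 condition, and the library numbers in the labels mark technical libraries within a culture. Over the 69 members the A2 minus A1 and B2 minus B1 differences had the same sign for 39, with a Spearman correlation across genes of 0.14 (0.10 over all genes), and what a number shares across cultures was not tested. B2 had the lowest depth, which limits genes near 1 FPKM, and 2 cultures limit every SD.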
